A study of Mus musculus with 3 samples.

Results

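The clustered protocadherin loci of mouse chromosome 18 were described here by 627 array probes that lie in a fixed window of build mm9, in which tiled regions run from 37080018 to 37979511, of 409597 placed probes on the array. The members were chosen by position alone and were split into the alpha (up to 37.36 Mb), beta (37.42 to 37.67 Mb) and gamma (from 37.80 Mb) subclusters. Probes whose starts lay at most 500 bp apart were joined into tiled regions of at least 3 probes, which gave 12 alpha regions with 167 probes, 19 beta regions with 257 and 11 gamma regions with 158. A further 3 regions with 42 probes lay between the windows, and 3 probes were in no region. The array held 28880 tiled regions in all, of which 664 were on chromosome 18 outside these loci.

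The series measured 5-methylcytosine in frontal cortex by immunoprecipitation of methylated DNA on a tiling array. Its single group held DNA from naive C57BL/6 males aged 2 months, for which the labels give no treatment and no altered allele, as 3 pools of 3 mice each. Input DNA (Cy3) and antibody-bound DNA (Cy5) of a pool were hybridised together, in the same dye orientation on every array. The sample titles number the pools 1 to 3 whereas every description gives the number 1, so whether the arrays are separate pools rests on the titles, and errors cover the spread between arrays.

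Clustered protocadherins are cell adhesion proteins of the cadherin superfamily that are expressed in neurons, where each cell uses a small set of them as a label of its surface. In the alpha and gamma subclusters each variable exon has a promoter of its own and is spliced to shared constant exons, whereas beta genes are coded by single exons with no constant part. Promoter choice is known to involve the insulator protein CTCF, and methylation of a variable promoter goes with its silence. In the RefSeq gene table of another build (GRCm38.p6) the alpha subcluster holds 14 genes from Pcdha1 to Pcdhac2, beta 22 from Pcdhb1 to Pcdhb22, and gamma 22 from Pcdhga1 to Pcdhgc5, and Slc25a2 and Taf7 lie among them. The array files pair no probe with a gene, and no mm9 annotation was used, so regions are named by position and not by gene, exon or promoter.

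Each value is the log2 of bound over input signal, set against the median probe of its own array. A value of 0 is that median and no methylation standard. Enrichment also rises with the density of methylated CpGs, so a ratio is no methylation percentage, and in pooled tissue fewer methylated cells and fewer methylated sites per cell cannot be told apart. The labelled tissue could not be checked, since DNA of these loci has no marker of cell type. Pairs of arrays had a Pearson's r between 0.859 and 0.907 across the 42 regions of the subclusters, as a description over regions that share arrays.

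Many probes at these loci were dim. In alpha 58.1% of probe measurements had input signal above background, with 51.0% in beta and 65.4% in gamma, against 73.1% in the other regions of chromosome 18. Bound DNA was above background in 47.3%, 28.7% and 40.3%, against 52.6%. At a probe with bound DNA below background the ratio is an upper limit, and with both channels below background there is no measured ratio. The median probe was 60 nt long at these loci and 53 nt on the rest of chromosome 18, and the part of dim or long probes in the differences from it was not tested. Results were also computed over probes with input above background on all arrays.

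Over all probes the mean ratio of bound to input DNA was highest in alpha regions, lower in beta regions and lowest in gamma regions. Alpha averaged 0.30, 0.27 and 0.12 on arrays 1 to 3, beta -0.46, -0.18 and -0.27, and gamma -0.60, -0.48 and -0.40. Over all probes the mean was above 0 on each array in alpha and below 0 on each in beta and gamma. The means were 0.23 ± 0.10 for alpha, -0.31 ± 0.14 for beta and -0.49 ± 0.10 for gamma (SD, n = 3 arrays). Other chromosome 18 regions averaged -0.11 ± 0.03.

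**Figure D1:**
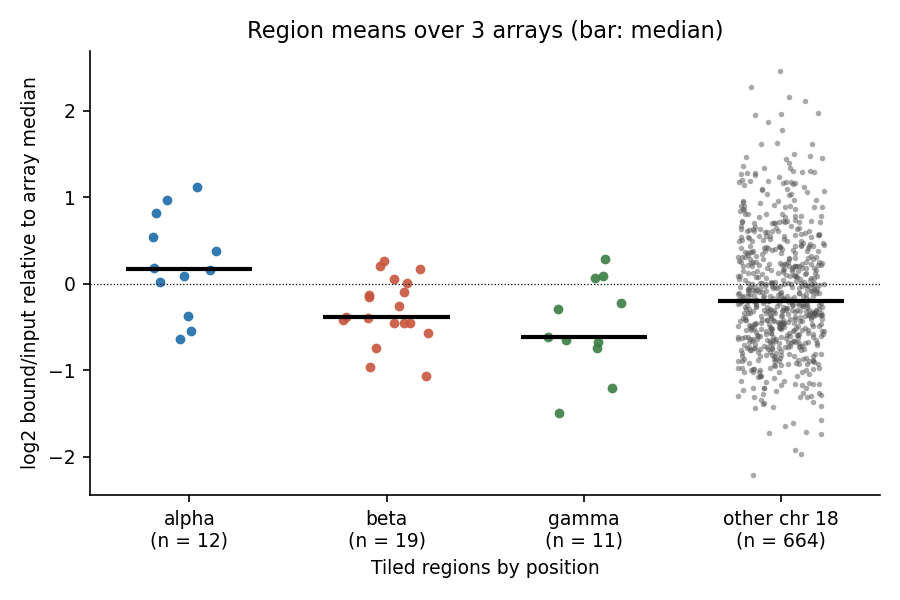
Mean log2 bound over input of each tiled region (points, mean of 3 arrays) in the alpha (12), beta (19) and gamma (11) subclusters and in the other regions of chromosome 18 (664), with bars at the medians of 0.17, -0.39, -0.61 and -0.19. The highest beta or gamma region is at 0.28, whereas 3 alpha regions are above 0.80.

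Alpha exceeded beta by 0.76, 0.46 and 0.38 on the 3 arrays, a difference of 0.53 ± 0.20. It exceeded gamma by 0.90, 0.75 and 0.52, or 0.72 ± 0.19. Beta exceeded gamma by 0.14, 0.29 and 0.13, or 0.19 ± 0.09, and this order did not hold with the series matrix values, where the difference was -0.038. The direction was the same on 3 of 3 arrays for each of the 3 pairs, and p was 0.25 for each by a two-sided exact permutation of the arrays' signs (0.25 after Benjamini-Hochberg adjustment over the 3 pairs), which is the smallest that 3 arrays allow. Over probes with input above background the means were 0.16 ± 0.22 for 10 alpha regions, -0.72 ± 0.05 for 17 beta regions and -0.81 ± 0.05 for 10 gamma regions. Alpha was then at 0.40, 0.11 and -0.04 on arrays 1 to 3, so not above 0 on array 3, and alpha minus beta was 0.88. With normexp background correction alpha exceeded beta by 0.23 and gamma by 0.35, and with loess by 0.33 and 0.53.

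Against the other regions of chromosome 18, alpha was higher by 0.39, 0.37 and 0.26 on the arrays, or 0.34 ± 0.07. Gamma was lower, with differences of -0.50, -0.38 and -0.26, or -0.38 ± 0.12. Beta was also lower, with -0.37, -0.09 and -0.13, or -0.19 ± 0.15, and array 1 stood apart. Each of these 3 had the same sign on 3 of 3 arrays, with p = 0.25 by the same exact permutation, the smallest possible (0.25 after adjustment over the 3). Against the 136 regions within 5 Mb of the loci the differences were 0.35 for alpha, -0.18 for beta and -0.37 for gamma. Over probes with input above background 616 other chromosome 18 regions averaged -0.25 ± 0.11. Under this filter alpha was at 0.16 ± 0.22, beta at -0.72 ± 0.05 and gamma at -0.81 ± 0.05. Alpha minus the rest was 0.16 with normexp and 0.12 with loess or the series matrix values, and gamma minus the rest was -0.19 with normexp. Beta minus the rest ranged over the alternatives from -0.06 with normexp to -0.53 with the series matrix values, and was -0.11 without array 1. With medians over regions beta minus other chromosome 18 was -0.07, and the arrays no longer shared a sign (exact permutation p = 0.75).

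Region by region, 5 of 12 alpha regions were higher than the array median and 3 lower (limma, adjusted p under 0.05 over all 28880 regions). On the whole array 28.0% of regions were called higher and 38.1% lower, and on the rest of chromosome 18 the shares were 25.0% and 43.4%. In beta no region was called higher and 10 of 19 were lower, and at an unadjusted p under 0.05 the same fit gave 0 higher and 11 lower. In gamma none was called higher and 7 of 11 were lower, with 1 higher and 7 lower at an unadjusted p under 0.05. With normexp 3 beta regions were called higher, and with loess 1. The counts rest on the median as zero: with the mode of each array as zero, 1 alpha region was higher, and 8 alpha, 19 beta and 11 gamma regions were lower. That mode was near the value of many probes at these loci with neither channel above background. Over the probes with input above background, 6 alpha regions were higher and 4 lower, 3 beta regions higher and 13 lower, and 8 gamma regions lower.

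**Figure D2:**
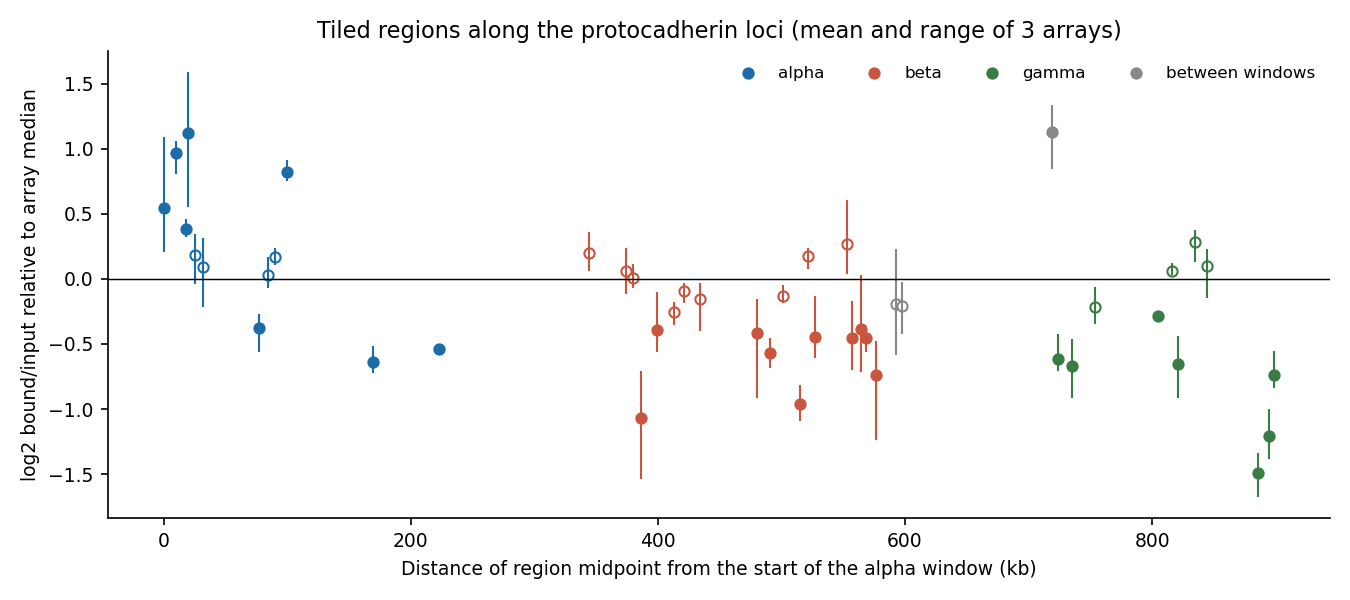
Mean log2 bound over input of the 45 tiled regions (points; lines span the 3 arrays) against distance in kb from the start of the alpha window, filled where the limma adjusted p was under 0.05. The midpoints of the higher alpha regions lie within the first 100.2 kb, and the last 3 gamma regions are all below 0.

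The first 4 alpha regions by position were all called higher. Region 37080018 to 37080373, the first by position, had 1.09, 0.33 and 0.21 on the arrays over 3 probes, all above background in both channels. Array 1 was far above the other arrays, and the mean was 0.54 ± 0.48 (limma adjusted p = 0.0101). Without array 1 region 37080018 to 37080373 was at 0.27, and it then missed the threshold (limma adjusted p = 0.0839). The next region, 37088883 to 37090292, had 1.03, 1.06 and 0.81, or 0.97 ± 0.14 over 13 probes (limma adjusted p = 2.29e-05). The highest in alpha was 37098699 to 37100043 with 1.59, 1.22 and 0.55, or 1.12 ± 0.53 over 15 probes, which is 2.17-fold above the median probe (limma adjusted p = 0.000106), and 93.8% of the other chromosome 18 regions were lower. The longest region of the loci, 37178890 to 37181446 with 29 probes over 2557 bp, had 0.91, 0.75 and 0.81, or 0.82 ± 0.08 (limma adjusted p = 6.53e-05). The last of the higher alpha regions, 37097753 to 37098240, had 0.38 ± 0.07 (limma adjusted p = 0.0121), but 0 of its 15 bound and 1 of its 15 input measurements were above background, so its ratio is hardly measured. With the mode as zero the regions 37088883 to 37090292 and 37178890 to 37181446 were at 0.27 and 0.13, and neither mean was called against that zero.

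The lowest pair of alpha regions were its last by position. The region from 37248580 to 37249988 had -0.68, -0.52 and -0.72 and the last region, 37302453 to 37303779, had -0.51, -0.56 and -0.55, with arrays that barely differed. Their means were -0.64 ± 0.11 (limma adjusted p = 0.000468) and -0.54 ± 0.02 (limma adjusted p = 0.0013). The third was region 37156381 to 37157707 at -0.37 ± 0.17 (limma adjusted p = 0.0168), and bound DNA exceeded background in 11 of 48 measurements. Its call was lost without array 1 (limma adjusted p = 0.0751), without array 2 (limma adjusted p = 0.0562), and with normexp, loess or medians over probes. The call of region 37302453 to 37303779 was lost with the series matrix values, at -0.22. The fourth lowest, 37163810 to 37165050, was at 0.03 ± 0.13 (limma adjusted p = 0.863). Over the 3 of its 16 probes with input above background it was at -1.15 ± 0.29, so its level near 0 holds for all probes only. The other alpha regions averaged 0.09 to 0.18, and over all probes none was called against the array median. Over probes with input above background 37111355 to 37112626 was called higher at 0.58 ± 0.35 (limma adjusted p = 0.000329). So was 37169384 to 37170658 at 0.52 ± 0.32 (limma adjusted p = 0.00116). A single alpha probe outside the regions, 37127572 to 37127616, had 2.49, 2.08 and 1.98 and was above background in both channels on all arrays.

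Over all probes beta regions were the most alike. Their means had an SD between regions of 0.37, against 0.57 in alpha, 0.55 in gamma and 0.71 on the rest of chromosome 18, in descriptions with no test, and dim probes were most common there. Over probes with input above background the region means ran from -2.01 to 0.85 in beta. They ran from -1.15 to 1.35 in alpha and from -1.53 to 0.27 in gamma, so beta then had the widest range. The lowest beta region over all probes was 37465930 to 37467269 with -1.54, -0.95 and -0.71, or -1.07 ± 0.43 over 14 probes (limma adjusted p = 7.02e-05). All arrays were below 0 and array 1 was lowest. Only 5 of its 42 bound measurements but 23 of 42 input measurements were above background, so the value is in large part an upper limit. Next was 37594113 to 37595436 with -1.09, -0.98 and -0.82, or -0.96 ± 0.14 (limma adjusted p = 2.37e-05), and bound DNA exceeded background in 19 of 48 measurements.

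The last beta region by position, 37655460 to 37656842, was at -1.23, -0.51 and -0.48, or -0.74 ± 0.43 (limma adjusted p = 0.00105), and none of its 51 bound measurements was above background. The fourth lowest, 37570537 to 37571522, was at -0.57 ± 0.12 (limma adjusted p = 0.00114), with 4 of 39. In both of these regions most probes had bound DNA below background. The highest beta region, 37632574 to 37633372, had 0.16, 0.60 and 0.04, or 0.27 ± 0.30 (limma adjusted p = 0.0977). It was followed by the first beta region, 37423428 to 37424808, at 0.20 ± 0.15 (limma adjusted p = 0.161), by 37600944 to 37602353 at 0.17 ± 0.08 (limma adjusted p = 0.211) and by 37453665 to 37454698 at 0.06 ± 0.18 (limma adjusted p = 0.676). Over probes with input above background these highest regions were at 0.57 ± 0.26, 0.85 ± 0.21, 0.66 ± 0.50 and -0.11 ± 0.01, in the same order. All but the last were then called higher (limma adjusted p of 0.000333, 4.11e-07 and 9.23e-05), and also with normexp. A pair of beta probes in no region, which start at 37579867 and 37579997, had means of -1.88 ± 0.68 and -2.18 ± 0.93, with input above background on all arrays.

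Over all probes the lowest region mean of the loci was at the far end of gamma. The region from 37964928 to 37966222 had -1.46, -1.67 and -1.34, or -1.49 ± 0.17 over 14 probes, 2.81-fold below the median probe (limma adjusted p = 1.05e-06). All arrays were far below 0, and 1.36% of the other chromosome 18 regions were lower. It was among the better measured regions, with 41 of 42 input and 22 of 42 bound measurements above background. The neighbouring region, 37973533 to 37974876, had -1.39, -1.23 and -1.0, or -1.21 ± 0.19 (limma adjusted p = 5.57e-06), and the last one, 37978047 to 37979511, had -0.82, -0.84 and -0.55, or -0.74 ± 0.16 (limma adjusted p = 0.000199). Over probes with input above background these 3 were at -1.53 ± 0.21, -1.46 ± 0.10 and -0.76 ± 0.22. The first and last of these values were close to those over all probes, whereas 37973533 to 37974876 was lower than its -1.21. Under that filter some beta regions were lower than all 3 of these gamma regions. These were 37465930 to 37467269 at -2.01 ± 0.44, 37655460 to 37656842 at -1.76 ± 0.41 and 37570537 to 37571522 at -1.73 ± 0.52.

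Among the other gamma regions, 37814363 to 37815777 was at -0.67 ± 0.23 (limma adjusted p = 0.000612) and the first by position, 37803015 to 37804446, at -0.61 ± 0.16 (limma adjusted p = 0.000783). The latter held 14 of 51 bound measurements above background, and its mean over probes with both channels above background was 0.70, the opposite direction, under a filter that selects on bound signal. With normexp region 37803015 to 37804446 was at -0.05, and its mean was not called. The 4 highest gamma regions were 37914206 to 37915612 at 0.28 ± 0.13 (limma adjusted p = 0.0538), 37924157 to 37925386 at 0.10 ± 0.21, 37895564 to 37896776 at 0.06 ± 0.05 and 37832843 to 37834177 at -0.22 ± 0.14, and none passed the test. Of these, 37924157 to 37925386 had 1 of 36 bound and 5 of 36 input measurements above background. With the series matrix values region 37924157 to 37925386 was at -0.87 (limma adjusted p = 0.00107) and region 37895564 to 37896776 at -0.28 (limma adjusted p = 0.0402), both called lower.

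The regions just outside the windows differed from each other. The region from 37798195 to 37799467, which ends less than 1 kb before the gamma window, had 1.20, 1.33 and 0.84, or 1.13 ± 0.25 over 12 probes, 2.18-fold above the median probe (limma adjusted p = 1.31e-05). It was about as high as the highest alpha region, and its neighbour inside the gamma window was the region at -0.61 given above. Past the end of the beta window, 37672081 to 37673476 was at -0.19 ± 0.41 and 37676798 to 37678188 at -0.21 ± 0.20, and neither passed the test. When the regions between the windows were joined to the nearer window, beta minus gamma fell to 0.06 and gamma minus the rest of chromosome 18 was -0.25.

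**Figure D3:**
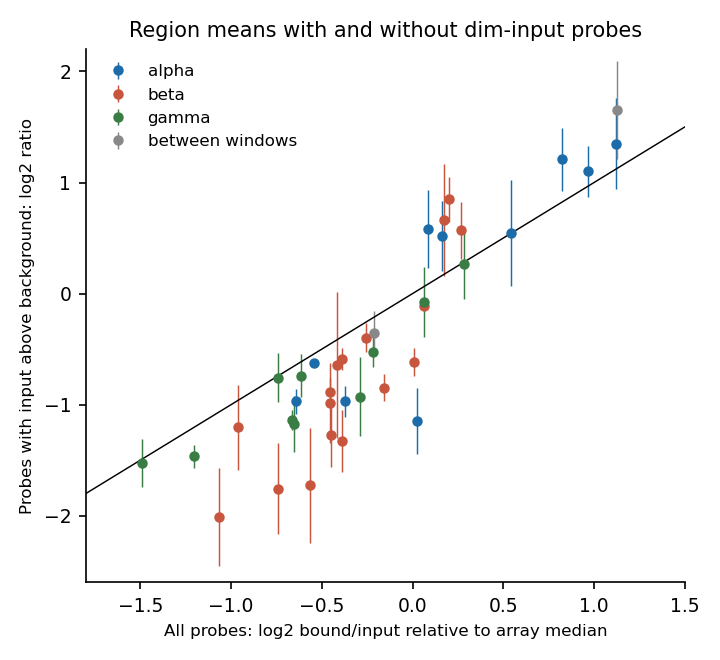
Mean log2 bound over input per region over all probes (x axis) against the mean over probes with input above background on all arrays (y axis, error bars are SD of 3 arrays), with the line of equal values. Most beta regions below 0 fall further under the line when dim-input probes are left out.

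The shape of enrichment along a region was measured as the centre, probes within 200 bp of the midpoint, minus the edges, probes over 500 bp from it. Over 10 alpha regions the edges were at 0.55 ± 0.07 and the centre was lower, at -0.09 ± 0.19, with differences of -0.74, -0.42 and -0.78 on the arrays. In beta it was -0.20, -0.14 and 0.001 over 12 regions, and in gamma -0.49, -0.21 and -0.08 over 10. Other chromosome 18 regions differed by -0.31 ± 0.08 over 508 regions. The edges pool both sides, which differed in alpha. In 9 of the 10 alpha regions the lower-coordinate edge averaged -0.22 ± 0.18 and the higher-coordinate edge 0.93 ± 0.27. On average the alpha centre was thus below the higher-coordinate edge only, though most lower-coordinate values are upper limits or hold no measured ratio. Averaged over 370 other chromosome 18 regions the sides were alike, at -0.03 ± 0.04 and -0.03 ± 0.03. Single regions there often differed by side, since the higher-coordinate edge was called higher in 86 and lower in 89 (limma, adjusted p under 0.05). By limma's fit over 21322 regions of the array, 32.5% had a lower and 17.0% a higher centre (adjusted p under 0.05). The corresponding counts were 4 lower and 1 higher of 10 in alpha, 5 lower and 4 higher of 12 in beta, and 3 lower and 0 higher of 10 in gamma, where an unadjusted p under 0.05 gave 3 lower and 1 higher.

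The most negative centre minus edges of the loci was in alpha, in the region from 37111355 to 37112626, whose overall mean was 0.09 ± 0.27. Its centre minus edges was -2.55, -2.17 and -2.90, from a centre of -0.83 ± 0.42 to edges of 1.71 ± 0.20 (difference -2.54 ± 0.37, limma adjusted p = 2.91e-05), with 1 edge probe on its lower-coordinate side. That probe, at 0.69 ± 0.08, had neither channel above background on any array. Centre probes 67, 120 and 173 bp past the midpoint had bound DNA above background on no array. Those 172 and 31 bp before it had bound DNA above background on 2 and 3 arrays. The 3 probes 549.5, 559.5 and 613.5 bp beyond the midpoint were at 1.85 ± 0.23, 2.11 ± 0.25 and 2.17 ± 0.34, all above background in both channels. Alpha regions 37156381 to 37157707 and 37248580 to 37249988 had centres of -1.13 ± 0.09 and -1.90 ± 0.15, and centre minus edges of -1.82 ± 0.21 (limma adjusted p = 0.000115) and -1.54 ± 0.29 (limma adjusted p = 0.000359). The highest alpha region, 37098699 to 37100043, had the opposite shape, with a centre of 1.89 ± 0.43 and a difference of 1.41 ± 0.42 (limma adjusted p = 0.000794). With loess this difference was 0.19 and was not called, and the call of 37248580 to 37249988 was lost with the series matrix values, at -0.76.

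In beta the most negative difference was that of 37600944 to 37602353, with a centre of -0.71 ± 0.24 against edges of 0.93 ± 0.15 (difference -1.65 ± 0.38, limma adjusted p = 0.000279). No probe of that centre had bound DNA above background on more than 1 array. Its lower-coordinate edge was at 0.33 ± 0.65, with 0 of 6 bound and 1 of 6 input measurements above background. The higher-coordinate edge was at 1.54 ± 0.48, with 6 of 6 in both channels. The most positive difference in beta was that of 37513692 to 37515048, with a centre of 0.32 ± 0.28 against -1.01 ± 0.19 (difference 1.34 ± 0.30, limma adjusted p = 0.000865). In this region 9 of 48 bound and 17 of 48 input measurements were above background, and with the series matrix values the difference was -0.20. With the series matrix values 0 beta regions were called with a higher centre. Over probes with input above background the contrast could be computed in 1 of the 4 regions with a higher centre, 37492544 to 37494225, at 0.55 ± 0.51 (limma adjusted p = 0.0652). In gamma the most negative difference was in the first region by position, with a centre of -1.02 ± 0.38 against 0.22 ± 0.17 (difference -1.24 ± 0.45, limma adjusted p = 0.00192). The sides pooled in that edge value differed, with higher-coordinate minus lower-coordinate edge at -1.81 ± 0.55 (limma adjusted p = 0.00139). Its higher-coordinate edge was at -0.50 ± 0.38, with 0 of 9 bound and 4 of 9 input measurements above background. Values there are upper limits or hold no measured ratio, so a centre below that side is not shown. The centre minus edges of region 37803015 to 37804446 was -0.64 with the narrower centre of 100 bp and edges over 400 bp (limma adjusted p = 0.0648). The most positive, in region 37884134 to 37885572, was 0.61 ± 0.29 (limma adjusted p = 0.0555). With the series matrix values the centre minus edges of region 37884134 to 37885572 was -0.68, the opposite direction (limma adjusted p = 0.0423).

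**Figure D4:**
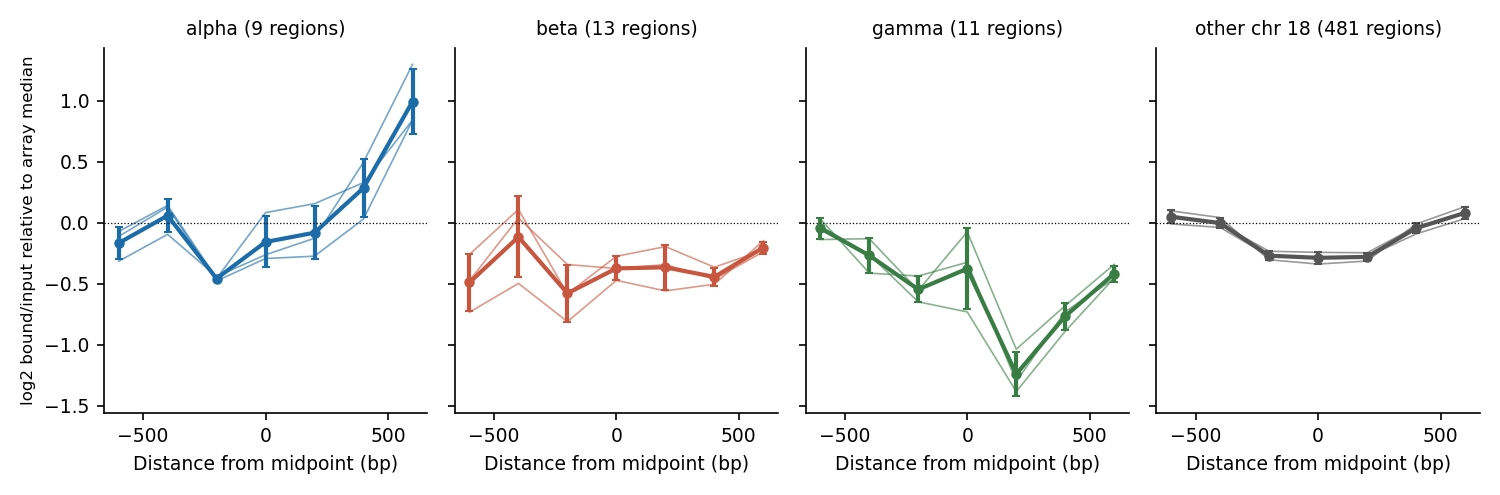
Mean log2 bound over input in bins of 200 bp by signed distance from the region's midpoint, for regions of 1000 to 1800 bp (9 alpha, 13 beta, 11 gamma and 481 other chromosome 18 regions), with means and SD of 3 arrays (thick) and single arrays (thin). Alpha rises to 1.0 in the last bin, and gamma is lowest, at -1.24, in the bin centred 200 bp past the midpoint. The mean over the other regions is nearly symmetric.

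In most alpha regions tested, bound over input was higher at the end with the higher coordinate. This contrast of the ends was chosen after the values were seen. Over the 9 alpha regions with probes on both sides, the lower-coordinate edge averaged -0.22 ± 0.18 and the higher-coordinate edge 0.93 ± 0.27, a difference of 1.66, 0.91 and 0.86 on the arrays, or 1.15 ± 0.45, and it was 0.59 with normexp, 0.68 with probe starts at most 250 bp apart and 2.0 with the series matrix values. Bound DNA was above background in 14 of 78 measurements at the lower-coordinate edges and in 68 of 84 at the higher-coordinate ones, and input in 26 of 78 and 66 of 84. Most values of the lower-coordinate edge are thus upper limits or hold no measured ratio. The contrast could be computed in no alpha region over probes above background in both channels, and in 1 over probes with input above background. The higher-coordinate edge was above the other in 6 of the 9 by limma's fit over 16464 regions and below it in 1, against 26.0% and 24.6% of all regions tested. On the rest of chromosome 18 the difference was 0.003 ± 0.02 over 370 regions. In beta it was 0.03 ± 0.38 over 8 regions, with arrays of both signs, and 0.97 with the series matrix values. In gamma it was -0.50 ± 0.15 over 8 regions, but 0.071 with the series matrix values and 0.37 over the probes with input above background, which left 2 regions.

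**Figure D5:**
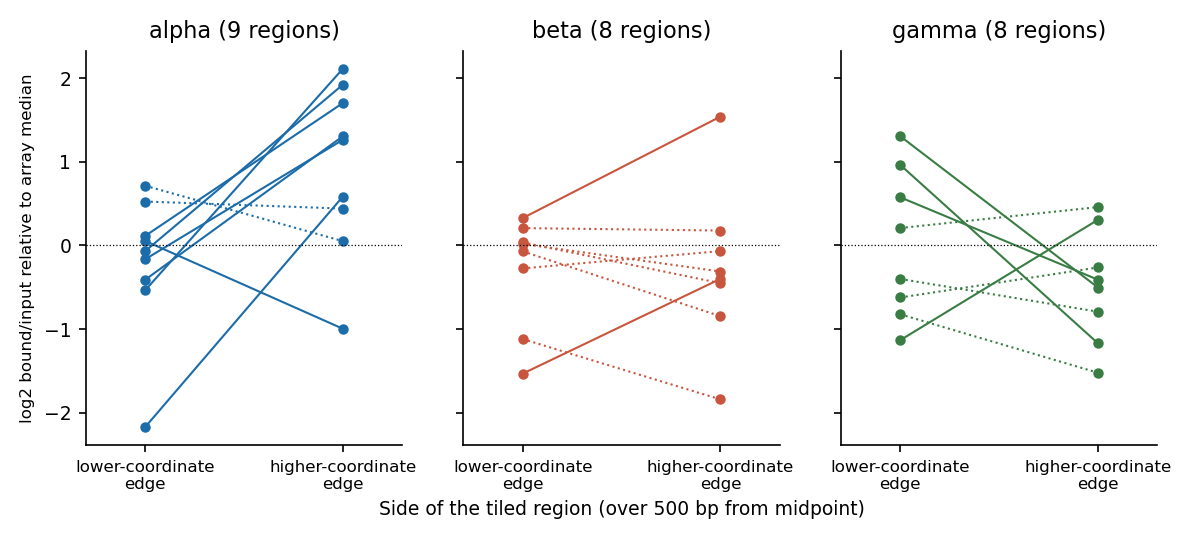
Mean log2 bound over input (3 arrays) at the lower- and the higher-coordinate edge of each region, joined by a line, in alpha (9 regions), beta (8) and gamma (8), solid where the limma adjusted p was under 0.05. Of the 9 alpha lines 6 are solid and rise, and 1 is solid and falls.

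In the last alpha region, 37302453 to 37303779, the edges went from -2.17 ± 0.13 to 0.58 ± 0.31 (2.75 ± 0.44, limma adjusted p = 0.000228). Its lower-coordinate edge had input above background in 6 of 6 measurements and bound DNA in 1 of 6, so that -2.17 is an upper limit. In 37088883 to 37090292 they went from -0.54 ± 0.58 to 2.11 ± 0.29 (2.65 ± 0.86, limma adjusted p = 0.000529), with bound DNA above background in 3 of 6 measurements at the lower-coordinate edge. In 37178890 to 37181446 the values were -0.07 ± 0.39, with 5 of 27 bound measurements above background, and 1.92 ± 0.23, with 26 of 30. Its highest probe, 1256 bp past the midpoint, was at 3.24 ± 0.11. The region that fell was 37248580 to 37249988, from 0.05 ± 0.23 to -1.0 ± 0.16. Of the 10 alpha regions of at least 1000 bp, 7 had their highest probe over 500 bp past the midpoint and 0 over 500 bp before it, against 21.8% and 20.2% of the other chromosome 18 regions. In beta the numbers were 2 and 3 of 13, and in gamma 1 and 3 of 11. The enriched region just before the gamma window ran the other way, from 2.39 ± 0.22 at its lower-coordinate edge to -0.10 ± 0.36 at the higher one (limma adjusted p = 0.000402). No probe of that higher-coordinate edge had bound or input signal above background on any array, so the edge holds no measured ratio.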

How the data were processed

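The members and lists were chosen with earlier results of these data known. Per the labels' protocols, 2 µg of DNA per pool was sonicated, precipitated with 10 µg of an antibody against 5-methylcytosine and 50 µl of protein G, and both fractions were amplified by whole-genome amplification, which can distort representation. Per the file headers, the authors deposited Agilent intensities (Feature Extraction 10.7.3.1; mm9 design), background-subtracted and dye-normalised. The authors' deposited series matrix holds log2 ratios, which tracked bound over input spot medians (r of 0.999 or more); the sources used here do not give its normalization.

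Ratios of the processed intensities were centred on each array's median non-control probe. Outlier-flagged spots were left out, spots of a probe averaged, and region means tested with limma 3.58.1 (R 4.3.3, 1 group against 0, Benjamini-Hochberg over all regions), checked on simulated data. Normexp used spot medians, since the files used hold no spot means. Centre minus edges needed at least 8 probes, with 2 or more in the centre and at the edges. Named regions were the 4 highest and 4 lowest of each subcluster, its first and last, its extreme centre contrasts and those between windows; the contrast of edges and regions named for it were added after values were seen. Depth does not apply to arrays; 3 arrays limit the precision. Alternatives changed the normalization, zero, outlier and dim-probe filters, region joining, centre width and arrays left out. Probe brightness and differences in tiled length or probe length were not modelled.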

Additional observations from a re-analysis of the deposited data

How the results depend on the processing

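No comparison of groups was possible because the series holds 1 group, and each ratio pairs bound with input DNA of the same array. Among values for the subclusters under the alternatives 281 kept their direction or, for counts of regions, stayed near the reported count, and differences among them moved by the sizes given in the report. A further 37 counts moved and 6 values reversed. The cause was not tested where an alternative moved a value. The regions joined across windows and the alternatives of the edge contrast were chosen after seeing the data.

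Gamma had 1 region called higher when regions between windows were joined, with probe starts at most 250 bp apart, at most 1000 bp apart, or at least 8 probes per region. Alpha then had 3 higher with at least 8 probes and 0 higher centres at 1000 bp. Normexp gave 7 lower centres in alpha, 3 higher regions in beta and 1 lower centre in gamma. Loess gave 1 higher beta region, a value of -0.0076 for the beta higher-coordinate minus lower-coordinate edge, and a centre minus edges of 1.13 in 37088883 to 37090292. Medians over probes gave 2 higher and 6 lower beta regions and 1 higher centre in gamma. A centre of 100 bp with edges over 400 bp gave 1 higher and 0 lower centres in gamma, and 1.08 in 37676798 to 37678188. Gaps of 250 bp gave a beta edge contrast of -0.019.

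With each array's mode as zero 1 alpha region was higher, and 8 alpha, 19 beta and 11 gamma regions were lower. Among the regions named by the rule, those that turned below 0 start at 37080018 (-0.15), 37111355 (-0.60), 37163810 (-0.67), 37423428 (-0.49), 37453665 (-0.63), 37600944 (-0.52), 37632574 (-0.42), 37895564 (-0.63), 37914206 (-0.41) and 37924157 (-0.60). The zero thus sets which regions are called, while differences between subclusters do not depend on it. The modes lay 0.675, 0.775 and 0.625 above the medians of arrays 1 to 3. Many probes at these loci with neither channel above background had similar values. A probe 34 bp past the midpoint of 37465930 to 37467269, for example, had 0.72, 0.85 and 0.65. The mode as zero is thus near the value of probes with no measured ratio.

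The series matrix values gave 5 lower regions in alpha, 0 higher centres in beta, a beta minus gamma of -0.038 and a gamma edge contrast of 0.071. Regions starting at 37163810, 37895564 and 37924157 were then at -0.71, -0.28 and -0.87, and the centre contrasts of those starting at 37465930, 37513692, 37884134 and 37895564 were -0.12, -0.20, -0.68 and -0.70.

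Probes above background in both channels gave 1 lower region, 0 higher and 1 lower centres in alpha, 2 higher and 3 lower regions with 0 higher and 0 lower centres in beta, and 1 higher and 4 lower regions with 0 lower centres in gamma. The region starting at 37803015 was at 0.70, and no alpha edge contrast could be computed. Input above background gave 0 higher centres in alpha, 3 higher regions with 0 higher and 2 lower centres in beta, a gamma edge contrast of 0.37, and -1.15 for the region starting at 37163810. Few regions kept enough probes for a centre contrast under these filters, so counts of 0 there include regions that could not be tested.

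Leaving out each array gave 0 to 1 higher centres in gamma (1 without replicate 1), 2 to 5 in beta (2 without replicate 3) and a beta edge contrast of -0.18 to 0.20 (-0.18 without replicate 1).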
